A study of Homo sapiens with 6 samples.

Results

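H3K4me1 was called at 94689 distinct intervals in NCI-H526 cells, and 42064 of them (44.4%, 95% Wilson interval 44.1 to 44.7%) overlapped neither an H3K4me2 interval nor a peak of LSD1. These 42064 intervals, called H3K4me1-alone here, are described below. They were chosen by the overlap itself: an interval was taken when it shared no base pair with any H3K4me2 interval with DMSO, any LSD1 peak with the inhibitor GSK552 or any LSD1 peak with DMSO. H3K4me1 alone is therefore how they were selected and not a result, and comparisons of their width, fold and distances with other intervals are descriptions that carry no test.

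NCI-H526 is an established line of human small cell lung cancer, labelled epithelial and grown in RPMI with serum. Chromatin immunoprecipitation followed by sequencing (ChIP-seq) was done for LSD1 in cells given GSK552, and for LSD1, H3K4me2 and H3K4me1 in cells given DMSO, the vehicle; the other 2 of 6 samples were inputs. The labels give 1 µM GSK2879552 for 24 hours as the treatment, read here as that of the GSK552 cells. Each group was 1 library of 1 cell line, so nothing separates a difference between conditions from one between libraries. H3K4me1 was measured with DMSO alone among the lists used, so no change of these intervals with inhibitor can be given.

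As background, the H3K4 tail can carry a series of methyl groups, and the methylation state differs between regulatory elements. H3K4me1 is broadly spread over enhancers and the shoulders of promoters, H3K4me2 marks both enhancers and promoters, and trimethylation marks active start sites. LSD1 (KDM1A), a flavin-dependent demethylase of CoREST and NuRD complexes, removes methyl groups from H3K4me2 and H3K4me1. Enhancers that carry H3K4me1 without signs of activity are often described as primed. Activity marks such as acetylated H3K27 were not among the lists used, and no such state is assigned here.

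The 4 lists differed in ways that touch what counts as absent. The H3K4me1 list covered 67.8 Mb, with a smallest −log10 q of 2.01 and no interval under 214 bp. The 81619 H3K4me2 intervals covered 60.1 Mb, down to a −log10 q of 2.02 and 164 bp. The 49597 LSD1 peaks with GSK552 covered 27.8 Mb and the 45188 with DMSO 28.2 Mb, with smallest −log10 q of 1.01 and 1.00. Read depth is unknown, so H3K4me2 or LSD1 below these thresholds may be present at an H3K4me1-alone interval. Positions are on hg19, and no gene is named at any of them because no hg19 annotation was used.

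The H3K4me1-alone intervals were the most numerous class of H3K4me1 and took up a smaller part of its sequence than of its number. They covered 16.9 Mb, 25% of the sequence under H3K4me1. The remaining intervals split into 22788 with H3K4me2 and no LSD1 (24.1% of all intervals), 7704 with LSD1 and no H3K4me2 (8.14%), and 22133 with H3K4me2 and LSD1 (23.4%). These classes held 23.4%, 6.05% and 45.6% of the covered sequence. Of the 7704 with LSD1 and no H3K4me2, 2430 overlapped LSD1 with GSK552 only, 2685 LSD1 with DMSO only, and 2589 LSD1 in both lists. The 2430 would have counted as H3K4me1-alone had DMSO-treated cells been the only ones profiled for LSD1.

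H3K4me1-alone intervals were short and had 1 summit as a rule. Their median width was 316 bp, and 95% of them were at most 877 bp wide, against a median of 591 bp for the 52625 other H3K4me1 intervals. The shortest possible width, 214 bp, was found at 4057 of them (9.64%), against 1853 of the others (3.52%). A single summit was recorded at 37587 (89.4%), against 30782 (58.5%) of the others. Among the other classes, the median width was 477 bp with H3K4me2 only, 400 bp with LSD1 only and 968 bp with both.

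The H3K4me1 enrichment at these intervals was lower, and the difference was small among narrow intervals. The deposited fold over the caller's background, a value of the authors' peak caller, had a median of 4.59 at H3K4me1-alone intervals, against 5.21 with H3K4me2 only, 4.87 with LSD1 only and 6.53 with both. The median −log10 q was 5.51, against 8.18 for all others, and it reached 10 or more at 3634 H3K4me1-alone intervals (8.64%, 8.37 to 8.91%) and 20626 others (39.2%, 38.8 to 39.6%). On each of the 24 chromosomes the H3K4me1-alone intervals were narrower at the median, and lower in fold and −log10 q, than the other H3K4me1 intervals. The chromosomes share 1 library and the same rule, so they are not replicates, and Y held only 28 H3K4me1 intervals, 22 of them H3K4me1-alone.

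**Figure D1:**
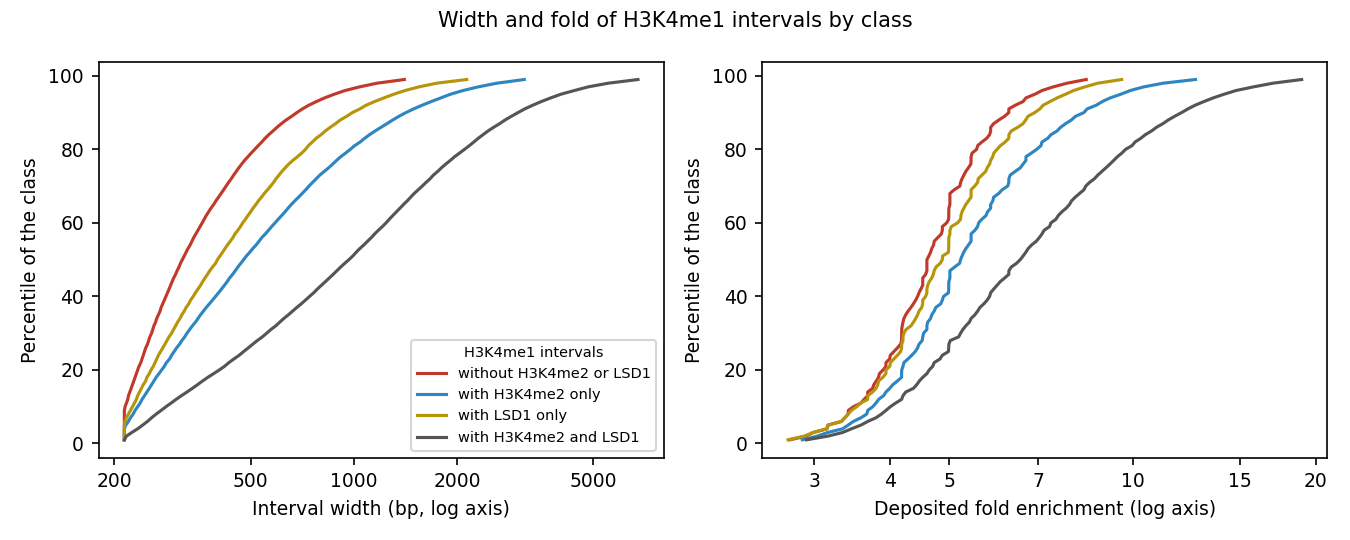
Percentiles 1 to 99 of interval width (left, bp, log axis) and deposited fold enrichment (right, log axis) for the 4 classes of H3K4me1 interval. The H3K4me1-alone class has the lowest medians, 316 bp and a fold of 4.59, the classes lie together at the low end of both axes, and the class with H3K4me2 and LSD1 lies farthest right, at 968 bp and 6.53.

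Within deciles of width the fold differed little among narrow intervals. In the narrowest decile of H3K4me1 width the median fold was 4.17 for H3K4me1-alone intervals and 4.17 for the others, and in decile 5 it was 4.71 against 4.89. It was 5.91 against 6.95 in decile 9 and 7.10 against 9.44 in decile 10. In these wide deciles the H3K4me1-alone intervals were also narrower than the others, with a median width of 1102 against 1175 bp in decile 9 and 1795 against 2290 bp in decile 10, so the fold there was not compared at equal width. In width decile 5 the median −log10 q was 5.76 against 6.39. Within deciles of score the fold was 3.41 against 3.37 in the lowest, 4.87 against 4.87 in decile 5 and 9.31 against 10.3 in the highest. The H3K4me1-alone intervals were narrower than the others in each of these score deciles.

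The share of H3K4me1 intervals that stood alone fell with width and with strength. By width it was 67.5% (66.6 to 68.4%) in the narrowest decile, with a median of 214 bp, and 3.37% (3.02 to 3.75%) in the widest, with a median of 2263 bp. By score it was 64.1% (63.1 to 65.0%) in the lowest decile and 3.35% (3.00 to 3.73%) in the highest. Under the 1 bp rule a wide interval meets a neighbouring list more easily, and the part this has in the fall with width was not tested. Both measures moved the share when the other was held on 1 side of its median: intervals wider than 416 bp with a −log10 q over 6.44 were alone in 20.9% of cases, wide but weaker ones in 47.6%, narrow but stronger ones in 53.7%, and narrow and weaker ones in 63.7%.

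**Figure D2:**
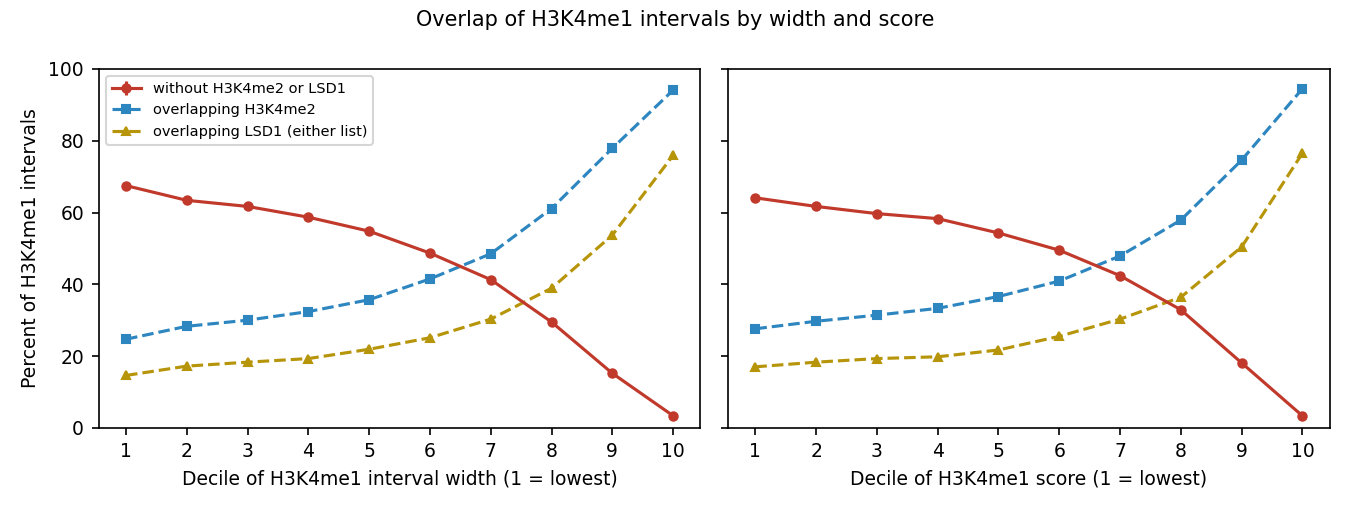
Percent of H3K4me1 intervals that stood alone (red, with 95% Wilson intervals), overlapped H3K4me2 (blue) or overlapped LSD1 in either list (ochre), by decile of interval width (left) and of score (right). The share that stood alone fell to 3.37% in the widest and 3.35% in the highest-scoring decile.

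About as many H3K4me1-alone intervals lay within 1 kb of an excluded list as lay beyond it. The median gap to the nearest H3K4me2 interval or LSD1 peak was 1073 bp, and 20330 intervals (48.3%, 47.9 to 48.8%) had one within 1 kb. A further 14833 (35.3%) had the nearest at 1 to 10 kb, 6703 (15.9%) at 10 to 100 kb, and 198 (0.471%) beyond 100 kb. H3K4me2 was the nearer partner: its median gap was 2124 bp, against 4162 bp to LSD1 with GSK552 and 5138 bp to LSD1 with DMSO. Those 3 gaps also reflect the lengths of the lists, since H3K4me2 has the most intervals.

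**Figure D3:**
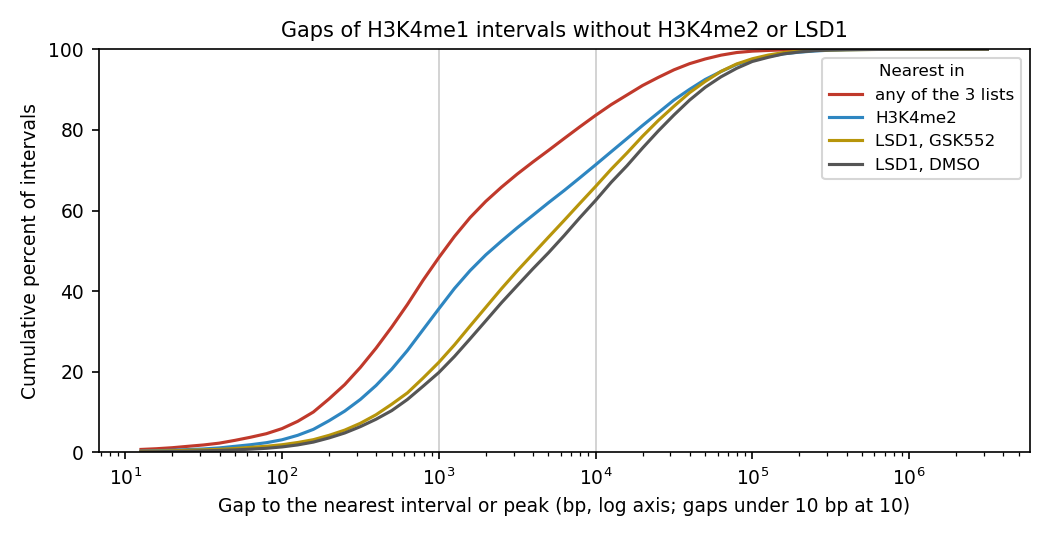
Cumulative percent of H3K4me1-alone intervals (vertical axis) by gap to the nearest interval or peak (bp, log axis) of any of the 3 excluded lists and of each list. Grey lines stand at 1 and 10 kb, where the curve for any list reads 48.3% and 83.6%.

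Distance from the other lists made little difference to the H3K4me1 signal itself. Median fold was 4.65 within 1 kb, 4.59 at 1 to 10 kb and 4.59 at 10 to 100 kb, and median width was 323, 312 and 306 bp. A −log10 q of 5 or more was reached by 65.5% (64.8 to 66.1%), 61.0% (60.2 to 61.8%) and 59.8% (58.6 to 61.0%) of them in these bands. Beyond 100 kb the 198 intervals were narrower, with a median of 281 bp, and 95 of them (48.0%, 41.1 to 54.9%) reached that value.

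Of the H3K4me1-alone intervals, 8020 (19.1%) had H3K4me2 but no LSD1 within 1 kb, 5345 (12.7%) had LSD1 but no H3K4me2, 6965 (16.6%) had both, and 21734 (51.7%) had neither. H3K4me2 stood on 1 side only for 14319 of the 14985 intervals that had it within 1 kb (95.6%), and on both sides for 666 (4.44%). Few H3K4me1-alone intervals were thus enclosed by H3K4me2 at this range.

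The H3K4me2 neighbours were mostly intervals that carried H3K4me1 as well. Among the 14985 H3K4me1-alone intervals with H3K4me2 within 1 kb, the nearest H3K4me2 interval overlapped another H3K4me1 interval in 12628 cases (84.3%, 83.7 to 84.8%) and none in 2357 (15.7%). Seen from H3K4me2, 13625 of 51532 intervals with H3K4me1 (26.4%, 26.1 to 26.8%) had an H3K4me1-alone interval within 1 kb, against 2461 of 30087 without H3K4me1 (8.18%, 7.88 to 8.49%). The order held in each quintile of H3K4me2 width, from 32.3% against 13.8% in the narrowest to 16.8% against 3.04% in the widest. H3K4me1 intervals also lie close to one another, with a median gap of 315 bp from an H3K4me1-alone interval to the next H3K4me1 interval and 237 bp from the others, and the part of this in the difference was not tested.

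H3K4me2 intervals that were also bound by LSD1 had an H3K4me1-alone neighbour somewhat less often. With H3K4me1, the share was 24.4% (23.9 to 24.9%) of 27037 LSD1-bound intervals and 28.7% (28.1 to 29.2%) of 24495 without LSD1. Without H3K4me1, it was 6.58% (6.18 to 7.01%) of 13601 LSD1-bound intervals and 9.50% (9.06 to 9.96%) of 16486 without LSD1. The LSD1-bound intervals were also wider, at medians of 764 against 293 bp and 615 against 272 bp, and wide H3K4me2 intervals had such neighbours less often. The part that width has in the difference was not tested.

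Among H3K4me1 intervals that lack H3K4me2, those without LSD1 were about as often close to H3K4me2 as those with it, and less often far from it. H3K4me2 lay within 1 kb of 35.6% (35.2 to 36.1%) of H3K4me1-alone intervals and of 37.2% (36.1 to 38.3%) of the 7704 with LSD1 only. The share was lower for H3K4me1-alone intervals in 6 of 10 width deciles. H3K4me2 lay more than 10 kb away for 28.7% (28.2 to 29.1%) of H3K4me1-alone intervals and for 34.7% (33.7 to 35.8%) of those with LSD1 only. This order held in every width decile but the widest, where the shares were 26.6% (22.1 to 31.8%) and 21.0% (16.3 to 26.5%).

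LSD1 with GSK552 lay within 1 kb of slightly more H3K4me1-alone intervals than LSD1 with DMSO, and the order depended on how many peaks were used. The full lists gave 9400 intervals (22.3%, 22 to 22.7%) with GSK552 and 8335 (19.8%, 19.4 to 20.2%) with DMSO. LSD1 with GSK552 and not with DMSO was within 1 kb of 3975 of them, LSD1 with DMSO and not with GSK552 of 2910, and LSD1 in both lists of 5425. With the 45188 highest-scoring peaks of each list the shares were 20.7% with GSK552 and 19.8% with DMSO, and with the 20000 highest-scoring peaks they were 10.6% with GSK552 and 11.2% with DMSO. With 1 library each, these lists do not show a shift of LSD1 towards or away from H3K4me1-alone chromatin.

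Seen from LSD1, the H3K4me1-alone intervals were neighbours mainly of peaks already on H3K4me1. LSD1 peaks on H3K4me1 without H3K4me2 had one within 1 kb in 36.6% (35.3 to 38.0%) of 4706 cases with GSK552 and 36.0% (34.6 to 37.4%) of 4447 with DMSO. For peaks on both marks the shares were 24.3% with GSK552 and 24.4% with DMSO, and for peaks on H3K4me2 alone 5.63% with GSK552 and 5.61% with DMSO. LSD1 peaks on neither mark had such a neighbour in 2111 of 18650 cases with GSK552 (11.3%, 10.9 to 11.8%) and 1629 of 17968 with DMSO (9.07%, 8.65 to 9.49%). Here too, H3K4me1 intervals of any class lie close to one another, and the part of this in the differences was not tested.

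H3K4me1 intervals were next joined into domains, over gaps of up to 1 kb, to see whether the H3K4me1-alone intervals were pieces of larger H3K4me1 regions. They fell into 3 kinds of place. Of the 42064, 21461 (51.0%, 50.5 to 51.5%) lay in 12971 domains that also held an H3K4me1 interval with H3K4me2 or LSD1, 9620 (22.9%) lay in 4003 domains made of H3K4me1-alone intervals only, and 10983 (26.1%) had no other H3K4me1 interval within 1 kb. Of the 21461, 19243 were in domains with H3K4me2, and 2218 were in domains with LSD1 and no H3K4me2. The solitary intervals had a median width of 291 bp and a median −log10 q of 5.29, and those of mixed domains 328 bp and 5.71. The other H3K4me1 intervals were spread in a similar way, with 22945 of 52625 in these mixed domains. Another H3K4me1 interval lay within 1 kb of 76.3% (75.9 to 76.7%) of the others, against 73.9% (73.5 to 74.3%) of the H3K4me1-alone intervals.

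In mixed domains the H3K4me1-alone intervals tended to lie at the ends. In mixed domains of 3 or more H3K4me1 intervals, 10231 of 17012 H3K4me1-alone intervals (60.1%, 59.4 to 60.9%) were the first or last interval of the domain, against 6813 of 18496 others (36.8%, 36.1 to 37.5%). The H3K4me1-alone intervals are narrower than the others as a class, and the part that width has in this difference was not tested. The domains made only of H3K4me1-alone intervals were short where they had 2 or more, with a median span of 1274 bp, and 101 of them held 5 or more, up to 10.

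Over the genome the H3K4me1-alone intervals were counted in runs, uninterrupted by another H3K4me1 interval, and the runs were mostly short. They made up 44.4% of all H3K4me1 intervals, so some would follow one another in any order, and the run lengths were not tested against that share. The 42064 intervals formed 19453 runs, of which 9077 were single intervals (21.6% of the H3K4me1-alone intervals). Runs of 5 or more numbered 1640 and held 24.4% of the intervals, and 82 runs had 10 or more. The nearest H3K4me1 interval was itself H3K4me1-alone for 22319 of them (53.1%, 52.6 to 53.5%), against 16513 of the 52625 others (31.4%, 31.0 to 31.8%). The share among H3K4me1-alone intervals was 29.8% within 1 kb of the excluded lists and 79.1% at 10 to 100 kb. By the rule every other H3K4me1 interval overlaps an excluded list, so this rise with distance follows at least in part from the selection.

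The longest run lay at chromosome 3, 139658325 to 139831097, where 20 consecutive H3K4me1-alone intervals spread over 173 kb. No H3K4me2 interval lay inside it, and 3 LSD1 peaks with GSK552 and 1 with DMSO fell between its intervals. The run at chromosome 10, 105574606 to 105611499, packed 17 intervals into 36.9 kb, with a highest −log10 q of 19.1, and held 1 H3K4me2 interval and no LSD1 peak. The run at chromosome 14, 100011849 to 100042320, had 17 intervals over 30.5 kb with a median fold of 4.17, and no interval or peak of the other 3 lists stood inside it. The other 2 of the 5 longest were at chromosome 14, 97267071 to 97456111, and chromosome 17, 71787901 to 71867314, each with 15 intervals.

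**Figure D4:**
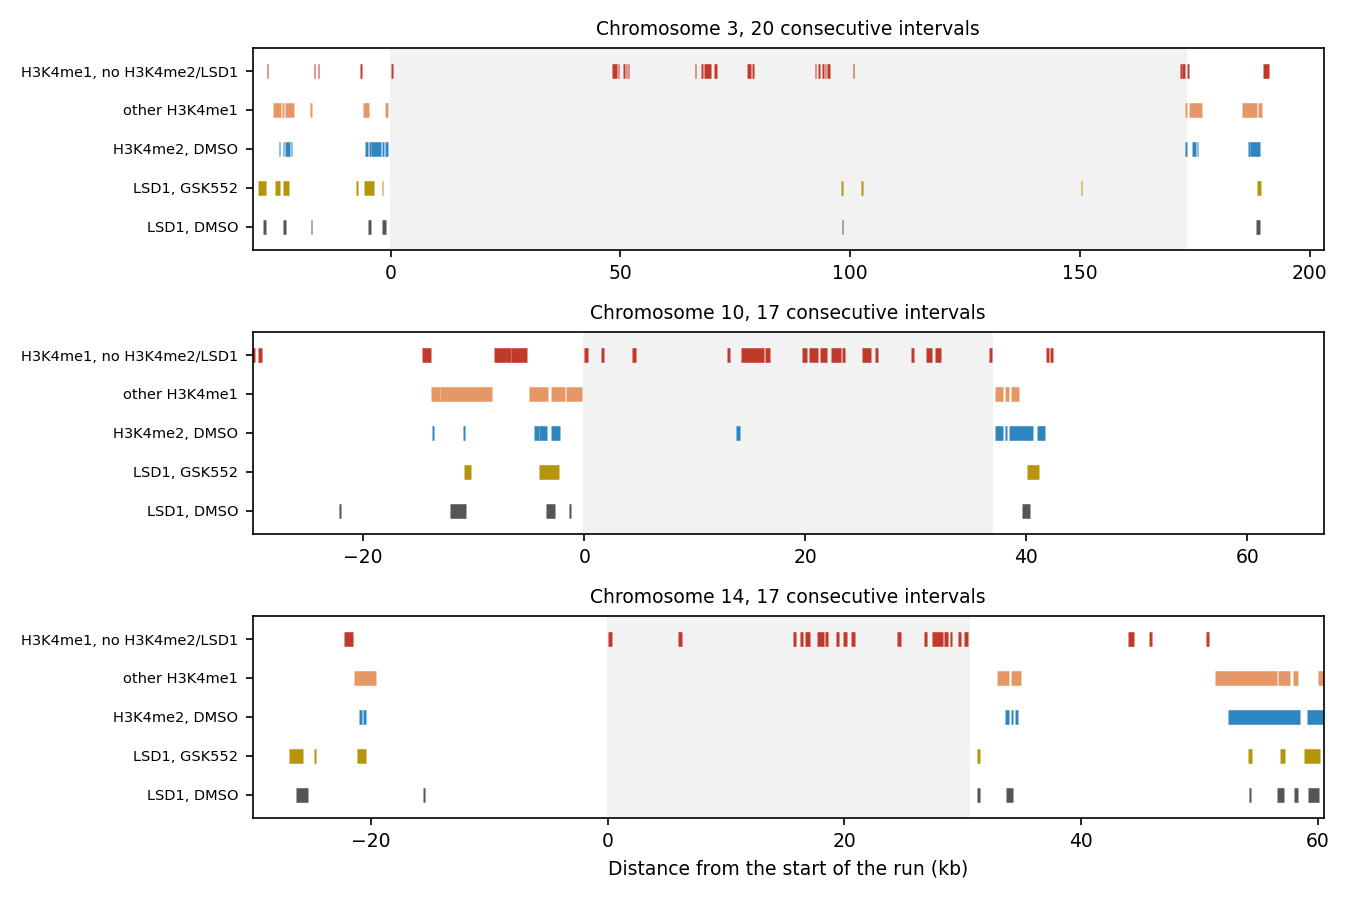
Intervals and peaks of the 4 lists over the 3 longest runs of H3K4me1-alone intervals, by distance from the start of the run (kb), with the run shaded and 30 kb either side. The chromosome 3 run holds 3 LSD1 peaks with GSK552 and 1 with DMSO, the chromosome 10 run 1 H3K4me2 interval, and the chromosome 14 run none of these.

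Joined over gaps of up to 10 kb, whatever lay between, 30418 of the H3K4me1-alone intervals (72.3%) fell in clusters of 2 or more. Clusters that no other interval or peak entered held 23824 intervals, of which 11646 were single. The chromosome 14 run above was the largest of these clusters. It was followed by chromosome 6, 41546609 to 41569036, with 14 intervals over 22.4 kb and a highest −log10 q of 12.7. Next came chromosome 2, 109232128 to 109252877, with 10 intervals, a median fold of 5.39 and a highest −log10 q of 20.2, and chromosome 21, 44922398 to 44938299, with 10 intervals and a median fold of 3.95. The last of the 5 largest, at chromosome 20, 46168795 to 46196858, had 9 intervals over 28.1 kb. When other lists were allowed between them, the most H3K4me1-alone intervals in a cluster was 30, at chromosome 2, 240122614 to 240227045 (14 H3K4me2 intervals inside), and at chromosome 20, 41724852 to 41811440 (23 inside).

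The 10 H3K4me1-alone intervals with the strongest H3K4me1 were 499 to 2728 bp wide and, like most of the class, lay near other H3K4me1. The highest-scoring was at chromosome 5, 14260859 to 14263571, 2713 bp wide with 9 summits, a fold of 15.3 and a −log10 q of 41.0. H3K4me2 began 30 bp from it, LSD1 with GSK552 271 bp and LSD1 with DMSO 140 bp away, so it bordered on both. The next, at chromosome 3, 196768362 to 196770350, had a fold of 15, and H3K4me2 lay 402 bp away. The interval at chromosome 9, 95491828 to 95492627, had the same fold of 15 in 800 bp, and its nearest H3K4me2 was 5280 bp and its nearest LSD1 5940 bp off.

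At chromosome 3, 53891256 to 53893983, an interval was 2728 bp wide with a fold of 14.2, and H3K4me2 lay 2410 bp away. On chromosome 22, the interval 38798235 to 38798733 had a fold of 14.2 from 1 summit in 499 bp, with H3K4me2 228 bp away. The interval at chromosome 2, 218852258 to 218852791, had a fold of 11, and LSD1 with GSK552 lay 10 bp and LSD1 with DMSO 53 bp from it. At chromosome 7, 156917009 to 156919080, an interval of 2072 bp with 7 summits had H3K4me2 and both LSD1 lists at between 2867 and 2975 bp. The 10 highest-scoring also included intervals at chromosome 3, 147368852 to 147369523, chromosome 1, 74269704 to 74270366, and chromosome 11, 111150899 to 111152448, with folds of 11.5, 13.0 and 9.97. Of the 10, 6 had an excluded list within 1 kb, 9 had 3 or more summits, and each of the 10 had another H3K4me1 interval within 1 kb. Over all 42064 H3K4me1-alone intervals, 48.3% had an excluded list within 1 kb and 73.9% had another H3K4me1 interval within 1 kb. Another H3K4me1 interval was as close for 76.3% of the 52625 other H3K4me1 intervals, so this is common to H3K4me1 of any class.

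The highest-scoring 10% as a whole, 4206 intervals with a −log10 q of 9.30 or more, had an excluded list within 1 kb in 55.5% (54.0 to 57.0%) of cases, and its median width was 609 bp. More than 10 kb from every other list lay 515 of them (12.2%, 11.3 to 13.3%), against 6901 of all 42064 (16.4%). The farthest of these was at chromosome 18, 36061375 to 36063048, 1674 bp wide with 4 summits and a fold of 7.93, and 364308 bp from the nearest peak of another list. It was also 291846 bp from any other H3K4me1 interval. Another, at chromosome 4, 163762901 to 163763470, was likewise isolated, 146223 bp from LSD1 with DMSO and 221679 bp from other H3K4me1, with a fold of 7.07.

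The other 3 of the farthest 5 had folds of 6.68, 8.35 and 7.51. The interval at chromosome 10, 89899411 to 89900011, had another H3K4me1 interval 97 bp away and no other list within 159564 bp. The interval at chromosome 22, 21558719 to 21559087, was 158313 bp from H3K4me2, and the interval at chromosome 21, 10454249 to 10454632, was 143902 bp from LSD1 with DMSO. All 5, picked as the farthest, had nothing called in the other 3 lists for more than 100 kb. Their −log10 q of 9.30 to 13.5 was high for the H3K4me1-alone class by selection, since they were taken from its highest-scoring 10%. Among the other H3K4me1 intervals the 75th percentile was 13.6.

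Wide H3K4me1-alone intervals were few. Only 1426 (3.39%, 3.22 to 3.57%) reached 1 kb, against 15934 of the other H3K4me1 intervals (30.3%, 29.9 to 30.7%), and 97 reached 2 kb. Those of 1 kb or more had a median fold of 6.26, and 44.7% (42.1 to 47.3%) had another list within 1 kb, against 48.5% (48.0 to 48.9%) of the narrower ones. The widest, at chromosome 10, 72990961 to 72995468, spanned 4508 bp with 6 summits and a fold of 9.98; LSD1 with GSK552 lay 163 bp, LSD1 with DMSO 1713 bp and H3K4me2 10139 bp away. The next, at chromosome 1, 2266391 to 2270368, had 13 summits, the most of any H3K4me1-alone interval, a fold of 11.8, H3K4me2 at 5152 bp, LSD1 with GSK552 at 35680 bp and LSD1 with DMSO at 35788 bp.

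The interval at chromosome 20, 24613790 to 24617433, was 3644 bp wide with a fold of 10.1, with H3K4me2 8625 bp and LSD1 with GSK552 8944 bp away, and LSD1 with DMSO at 53041 bp. The intervals at chromosome 14, 70160521 to 70164156, and chromosome 17, 32266418 to 32270005, were 3636 and 3588 bp wide with folds of 6.70 and 8.91. The nearest other list was 913 bp from the first and 9638 bp from the second.

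The chromosomes differed little in the share of H3K4me1 that stood alone, with chromosome 19 as the exception among those with many intervals. On chromosome 19, 655 of 2250 H3K4me1 intervals (29.1%, 27.3 to 31.0%) were H3K4me1-alone. The next lowest was chromosome 17, with 1705 of 4232 (40.3%, 38.8 to 41.8%), and the highest after Y was chromosome 10, with 1933 of 3887 (49.7%, 48.2 to 51.3%). Weighting the 10 width deciles equally gave 28.8% on chromosome 19, 42.2% on 17 and 48.9% on 10, so the share on 19 stayed the lowest. Under this weighting the next lowest was chromosome 16, with 41.9%, and the highest after Y was chromosome 21, with 49.0%. Chromosome 19 also had the most H3K4me2 intervals per Mb, 56.4, with chromosome length taken as the largest end of any peak. The next densest chromosomes also had shares below that of all chromosomes, with 48.6 per Mb and 40.3% on 17, and 37.6 per Mb and 42.4% on 20. The order was not strict: chromosome 10 had 25.3 per Mb and a share of 49.7%, and chromosome 13, with 19.5 per Mb, had 43.3%. A relation between share and density over chromosomes was not tested. On Y, 22 of 28 intervals stood alone (78.6%, 60.5 to 89.8%), a count too small to place it.

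**Figure D5:**
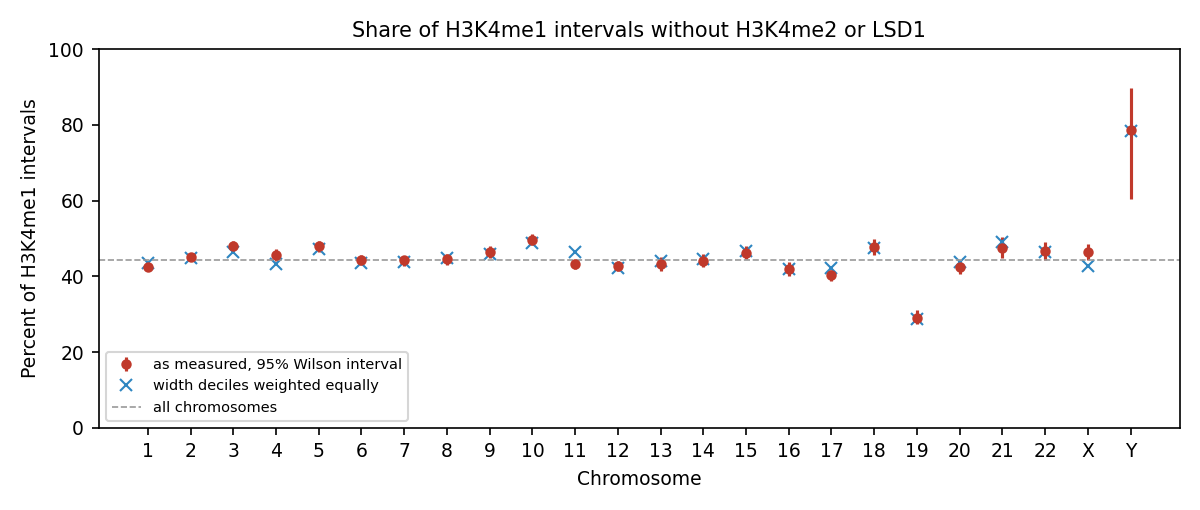
Percent of H3K4me1 intervals on each chromosome that stood alone, as measured (red points with 95% Wilson intervals) and with the 10 width deciles weighted equally (blue crosses); the dashed line is the 44.4% of all chromosomes. Chromosome 19 lies lowest at 29.1%, and Y, with 28 intervals, has the widest interval.

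The share was also taken by H3K4me2 density in 1 Mb windows, counted where a window held at least 10 H3K4me1 intervals. In the quintile of windows with the fewest H3K4me2 intervals, a median of 12, 50.9% (49.8 to 52.0%) of H3K4me1 intervals stood alone, and in the quintile with the most, a median of 65, 41.6% (41.1 to 42.1%) did. The windows were sorted by a list that the rule used, so this describes how the rule acts over the genome. In number the order was the opposite, with a median of 8 H3K4me1-alone intervals in a window of the lowest quintile and 29 in one of the highest. The window with the most was chromosome 11, 92000001 to 93000000, with 103 of 174 H3K4me1 intervals alone beside 152 H3K4me2 intervals, followed by chromosome 10, 80000001 to 81000000, with 101 of 158 beside 60.

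Intervals just inside and just outside the rule had like widths and folds. The 2517 H3K4me1-alone intervals with a gap of 0 to 100 bp had a median width of 330 bp, a median fold of 4.71 and a median −log10 q of 5.84, and the 2866 intervals left out for an overlap of 1 to 100 bp had 330 bp, 4.59 and 5.51. A gap of 0 bp, where intervals touch without sharing a base, was found at 25. The highest-scoring of these were chromosome 15, 85889712 to 85890673 (fold 8.34, touching H3K4me2), X, 71946018 to 71946419 (fold 6.61, touching H3K4me2), and chromosome 4, 152623454 to 152624192 (fold 5.82, touching LSD1 with GSK552). On the other side of the rule, with an overlap of 1 bp, were chromosome 7, 34199958 to 34200540 (fold 6.52, LSD1), chromosome 7, 33618454 to 33618971 (fold 6.61, H3K4me2), and chromosome 10, 102378155 to 102378841 (fold 6.26, LSD1).

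Stretches of chromosomes 2 and 6 that earlier results of these data had singled out for a raised background held 121 of the 42064 H3K4me1-alone intervals. They made up 47.8% (41.7 to 54.0%) of the 253 H3K4me1 intervals there, against 44.4% elsewhere, and their median fold was 2.74, against 4.59 elsewhere. Fold is a ratio over local background, so the lower fold is not independent of how these stretches were picked.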

How the data were processed

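Peak lists were used for 4 of the 6 samples: H3K4me1 with DMSO, H3K4me2 with DMSO, LSD1 with GSK552 and LSD1 with DMSO, each 1 library. The 2 inputs were not used here. The submitters' processing notes name BWA, Picard, MACS2 2.0 and hg19. The control, duplicate handling, depth and the other versions are not stated in those notes or in the labels. The deposited files lack a header and were read as MACS2 output. In them the deposited score equals 10 times the −log10 q, cut to a whole number, in at least 99.99% of the peaks of each list, fold is the authors' linear ratio over local background, and p-values and q-values are given as −log10 by the authors for each list on its own.

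Rows of the histone lists that share an interval were merged, with the values of the highest-scoring row. Overlap means at least 1 shared bp, and a gap is the bp between 2 intervals. Shares carry 95% Wilson intervals, which cover counting error only; neighbouring intervals are not independent. Groups of 1 library allow no test between conditions. The overlap search was checked on simulated data. Python 3.11.15, pandas 2.3.3 and statsmodels 0.14.6 were used.

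Members and measures were chosen with earlier results of these data known. The intervals named by position follow a rule: the 10 highest-scoring, the 5 widest, the 5 farthest from the other lists among the highest-scoring 10%, the 5 longest runs, the 5 largest clusters without another interval or peak inside, and 3 on each side of the overlap rule. Domains, bands of distance, windows, wide intervals, the largest clusters of any kind and comparisons of neighbours were chosen after the data were seen. Alternatives covered the overlap rule, list thresholds, the LSD1 lists, chromosomes and the stitching gap. The gene table at hand is on GRCh38, so gene positions, base composition, motifs, gene lists and sequences at hg19 positions were not analysed here.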

Additional observations from a re-analysis of the deposited data

How the results depend on the processing

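The share of H3K4me1 intervals that stood alone, their median width, fold and gap, and their share in clusters of 2 or more were recomputed, with 2 values on nearness to LSD1; of 53 recomputed values, 13 stayed within the 95% counting interval of the reported value and 40 moved out of it. The counting intervals are narrow at this number of regions, and each alternative changes which H3K4me1 intervals qualify. The gap was taken to the lists kept in each alternative. Where lists were shortened or left out, it is therefore a different measure from the reported gap. With a reciprocal overlap of 50% the values were 82.5%, 384 bp, 4.95, 118 bp and 84.8%. With the H3K4me1 summit as the point that must lie outside, they were 57.6%, 354 bp, 4.74, 591 bp and 78.4%. With no other list within 1 kb, they were 23%, 310 bp, 4.59, 4716 bp and 63.6%. With LSD1 limited to a −log10 q of at least 2, they were 47.2%, 320 bp, 4.60, 1308 bp and 73.8%. With the 50% highest-scoring peaks of the other lists, they were 60.2%, 346 bp, 4.75, 3320 bp and 79.4%. With H3K4me1 of −log10 q of 5 or more, they were 38.0%, 363 bp, 5.03, 989 bp and 61.6%. Without LSD1 with GSK552 they were 47.0%, 319 bp, 4.59, 1304 bp and 73.7%, and without both LSD1 lists 52.6%, 326 bp, 4.63, 2247 bp and 76.2%. A stitching gap of 5 kb gave 64.9% in clusters. On chromosomes 1 to 22 only, and without the stretches of chromosomes 2 and 6, all 10 values stayed within their intervals. The use of 20000 LSD1 peaks, chosen after the data were seen, gave 10.6% with GSK552 and 11.2% with DMSO within 1 kb. No paired analysis was possible because every group was a single library. Depth is unknown, so a mark or LSD1 not called at an interval is not shown to be absent. The planned gene position, base composition and motif results, with their alternatives, were not run.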
